A study of Mus musculus with 12 samples.

Results

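The 10 genes described here make, degrade or sense prostaglandins, and were picked from the 52550 gene IDs of the count table by symbol. They are the cyclooxygenases Ptgs1 and Ptgs2, the terminal synthases Ptgds, Ptges and Ptgis, the prostaglandin E2 receptors Ptger1, Ptger2, Ptger3 and Ptger4, and the inactivating enzyme Hpgd. All 10 had counts in all 12 libraries. The choice rested on measured values of 2 of them: Ptgds was listed because its counts were high in brown fat, and Ptger3 because it moved in opposite directions in the 2 fat depots. Those patterns are given below as description, with no test.

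The libraries held polyadenylated RNA of whole fat from mice on a high-fat diet. Each of 4 groups had 3 libraries: inguinal white adipose tissue (WAT) of AKO mice, WAT of control mice, brown adipose tissue (BAT) of AKO mice and BAT of control mice. AKO mice were Mcu fl/fl animals with a knockout restricted to adipose tissue of Mcu, the pore subunit of the mitochondrial calcium uniporter. Controls were Mcu fl/fl mice, so both genotypes carried the floxed alleles. The sources used here do not state the Cre driver, the age or the sex, nor that each library came from its own animal. The p-values therefore measure the spread between libraries, which may be technical.

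Prostaglandins are short-lived lipid signals made from arachidonic acid that is cut from membrane phospholipids. A cyclooxygenase turns it into prostaglandin H2, and terminal synthases convert that common precursor into prostaglandin D2, prostaglandin E2 or prostacyclin. Each product acts on G protein-coupled receptors, and prostaglandin E2 has a set of its own, named EP1 to EP4. EP3 couples to Gi, lowers cyclic AMP and restrains lipolysis in fat cells, whereas EP2 and EP4 couple to Gs and raise cyclic AMP. Hpgd, the 15-hydroxyprostaglandin dehydrogenase, oxidises prostaglandins and ends their signal.

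Total counts ran from 15692588 to 18967159 per library. Mcu, the targeted gene, measured 11.2 ± 1.28 CPM in WAT of AKO mice and 18.8 ± 0.446 CPM in WAT of controls, and 10.7 ± 3.21 CPM in BAT of AKO mice and 26.1 ± 2.73 CPM in BAT of controls (SD, n = 3 each). CPM are counts scaled to library size after TMM scaling over the 12 libraries. Brown adipocyte markers summed to between 6203 and 8062 CPM in the BAT libraries, against 17.9 to 44.0 CPM in the WAT libraries. Markers of other tissues were high in some libraries. Skeletal muscle markers reached 16667 CPM in WAT AKO 2, 10487 CPM in WAT control 1, 2288 CPM in WAT control 2, 14789 CPM in BAT AKO 2 and 1559 CPM in BAT control 1, against at most 456 CPM in the other 7 libraries. B lymphocyte markers summed to 507, 384 and 892 CPM in WAT AKO 1, 2 and 3 and to 290 CPM in WAT control 2, against 1.99 and 2.11 CPM in WAT controls 1 and 3.

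The stretches of DNA before the RefSeq start sites of 4 of the genes are shown here because the values described below turn on these genes. They come from RefSeq promoters on GRCm38.p6, which held 8 of the 10 genes; none was used for Ptger1 and Ptgis. Each runs 5′ to 3′ on the strand of its gene and covers the 250 bases before the start site, except that of Ptgds. A further 93 bases next to the Ptgds start are annotated as untranslated exon of the transcript Ptgds-201 and are not shown. The whole Ptgds window lies inside the gene as annotated in GENCODE M21, whose 5′ end is at 25470046. It is therefore not upstream of that annotated end. The same holds for the Ptges window searched below, with the annotated 5′ end at 30929863. Capitals mark GC box letters (GGGCGG or CCGCCC).
Ptger3, chr3:157566626-157566875, plus strand: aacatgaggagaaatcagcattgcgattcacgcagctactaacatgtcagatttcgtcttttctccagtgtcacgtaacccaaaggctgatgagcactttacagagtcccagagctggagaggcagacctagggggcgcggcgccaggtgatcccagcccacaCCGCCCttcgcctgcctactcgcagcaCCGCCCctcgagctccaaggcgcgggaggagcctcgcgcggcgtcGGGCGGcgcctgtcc
Ptgs1, chr2:36230176-36230425, plus strand: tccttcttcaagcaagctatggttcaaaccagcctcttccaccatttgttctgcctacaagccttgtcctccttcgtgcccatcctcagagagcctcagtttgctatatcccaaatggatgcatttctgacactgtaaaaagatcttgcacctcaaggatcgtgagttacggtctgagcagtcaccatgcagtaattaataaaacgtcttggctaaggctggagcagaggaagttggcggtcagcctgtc
Ptgds, chr2:25469843-25469999, minus strand: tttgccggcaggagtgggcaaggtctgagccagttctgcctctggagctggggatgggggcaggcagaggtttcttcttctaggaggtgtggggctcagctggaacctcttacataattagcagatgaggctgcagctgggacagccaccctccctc
Hpgd, chr8:56294302-56294551, plus strand: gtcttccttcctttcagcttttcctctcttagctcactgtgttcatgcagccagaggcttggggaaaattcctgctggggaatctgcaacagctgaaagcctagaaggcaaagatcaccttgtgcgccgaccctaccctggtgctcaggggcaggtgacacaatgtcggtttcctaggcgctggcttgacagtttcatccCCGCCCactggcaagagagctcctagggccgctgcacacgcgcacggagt
Motif letters were searched on both strands of the 250 bases: the TATA box (TATAAA), the GC box, CCAAT, the E-box CACGTG, the AP-1 letters TGACTCA, the cyclic AMP response element TGACGTCA and the PPAR element named DR1. The Ptger3 window held 3 GC boxes, with first bases 87, 60 and 15 bases before the start, and its GC content was 62.0%. Ptger4 held 4 GC boxes, 2 of them overlapping, and a CCAAT. Ptges held 2 GC boxes, Ptgs2 and Hpgd held 1 each, and Ptger2 held a CCAAT. GC boxes stood in 32.7% and CCAAT in 33.8% of all 32851 promoters, whose median GC content was 52.4%. The Ptgds window held AP-1 letters 35 bases before its start, in the stretch left out above, as did 4.46% of promoters. In the Ptgs1 window, with a GC content of 48.0%, none of the searched letters occurred. TATAAA was in 12.4%, CACGTG in 6.02%, TGACGTCA in 1.55% and DR1 in 0.0335% of promoters, and in none of the 8 windows.

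Hpgd and Ptger3 led in white fat and Ptgds and Ptger3 in brown fat. Levels of different genes were compared in FPKM, which divides counts by gene length and library total. In WAT of AKO mice, Hpgd measured 47.6 ± 5.03 FPKM, Ptger3 10.4 ± 2.23 and Ptges 6.77 ± 0.185 (SD, n = 3 each), and their libraries did not overlap. Below them Ptgs1, Ptgis, Ptger4 and Ptger2 followed between 3.08 and 1.73 FPKM on average, each overlapping its neighbour. In WAT of controls, Hpgd measured 67.9 ± 30.2 FPKM and Ptger3 28.4 ± 7.42 FPKM, and the 2 genes overlapped. Ptges, Ptgis and Ptgs1 came next at 6.46 ± 2.94, 4.22 ± 1.67 and 3.75 ± 0.548 FPKM, with overlap between neighbours.

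In BAT of AKO mice the order was Ptgds at 20.1 ± 6.36 FPKM, Ptger3 at 11.0 ± 0.472 FPKM and Hpgd at 3.76 ± 0.742 FPKM, with no overlap. In BAT of controls the same 3 genes led, at 29.1 ± 7.69, 8.21 ± 0.512 and 5.06 ± 1.44 FPKM, also without overlap. The other 7 genes averaged at most 1.80 FPKM in either BAT group. Ptger1 and Ptgs2 averaged below 0.2 FPKM in every group, and so did Ptgds in WAT of controls.

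**Figure D1:**
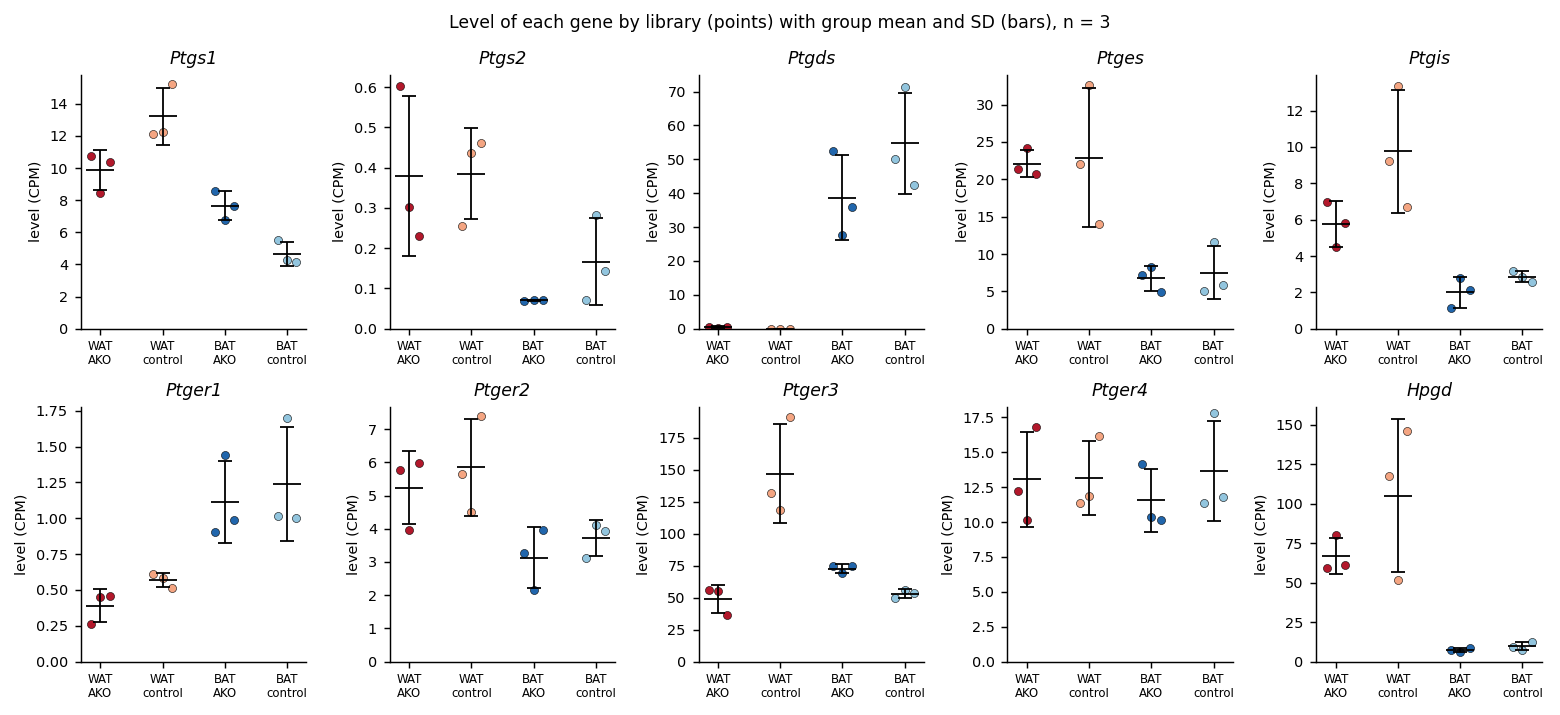
Level of each gene in CPM, by library (points), with group means and SDs (bars, n = 3) for WAT of AKO mice, WAT of controls, BAT of AKO mice and BAT of controls. Ptger3 is lower in AKO than in control libraries of WAT and higher in those of BAT, and Ptgds is near 0 in all 6 WAT libraries.

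Ptger3, the gene of the EP3 receptor, was lower in AKO white fat and higher in AKO brown fat than in controls. It lies on the plus strand of chromosome 3 (157566892 to 157645888, mm10, 4 merged exons). In WAT it measured 55.6, 55.3 and 36.2 CPM in AKO libraries, against 131, 118 and 191 CPM in control libraries. In BAT it measured 74.6, 69.0 and 74.5 CPM in AKO libraries, against 49.4, 56.3 and 53.8 CPM in control libraries. Genotypes did not overlap in either depot. The log2 fold change, AKO over control, was −1.58 in WAT (SE 0.256), a ratio of mean CPM of 0.334, and 0.46 in BAT (SE 0.0766), a ratio of 1.37. The AKO effect in BAT exceeded that in WAT by 2.01 on the log2 scale (SE 0.270). Because the gene was listed for this pattern, no p is given. Under the alternative settings run, the WAT value lay between −1.74 and −1.35 and the BAT value between 0.42 and 0.49.

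Among the 4 groups, Ptger3 in TMM-scaled CPM ranked highest in WAT of controls (147 ± 38.7 CPM), then in BAT of AKO mice (72.7 ± 3.21 CPM). The second place depends on the scaling. In FPKM, BAT of AKO mice (10.4 to 11.3) lay inside the range of WAT of AKO mice (7.92 to 12.3). In CPM, BAT of controls (53.1 ± 3.50 CPM) and WAT of AKO mice (49.0 ± 11.1 CPM, SD, n = 3 each) overlapped and could not be ordered. In AKO mice, BAT exceeded WAT by 0.65 on the log2 scale (SE 0.174; 0.08 if scaled by total count alone), whereas in controls the difference between BAT and WAT was −1.43 (SE 0.185). The 6 libraries of 1 depot enter both the genotype and the depot values, so these are the same measurements read along another axis.

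Other quantities moved with Ptger3 in white fat. Markers of adipose progenitors summed to between 856 and 991 CPM in WAT of AKO mice, against 1549 to 1595 CPM in WAT of controls, with all 6 markers lower by fitted fold change and none passing the test. In BAT these 6 markers summed to between 245 and 335 CPM in AKO libraries and between 335 and 407 CPM in control libraries, with 3 of the 6 higher by fitted fold change. Progenitor markers were not alone in WAT. There 6 of 6 endothelial, 7 of 8 macrophage, 5 of 5 smooth muscle and pericyte and 6 of 8 adipocyte markers tested were also lower in AKO. In the other direction, 6 of 6 B lymphocyte, 6 of 6 T lymphocyte and 7 of 7 skeletal muscle markers tested were higher. None of these passed the test. WAT control 3, the library with most Ptger3, also had the highest sums of endothelial markers (1686 CPM, against 656 to 919 in the other WAT libraries) and of smooth muscle and pericyte markers (1162 CPM, against 490 to 617). Without that library the WAT log2 fold change was −1.35. The part of these cell types in the Ptger3 values was not tested. In whole tissue, fewer cells of a type and less RNA per cell cannot be told apart.

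EP receptor transcripts as a whole were mostly those of Ptger3. Their sum was 14.6 ± 1.82 FPKM in WAT of AKO mice and 32.4 ± 8.26 FPKM in WAT of controls, and 13.4 ± 0.736 FPKM in BAT of AKO mice and 11.1 ± 1.07 FPKM in BAT of controls. Ptger3 held 70.8 ± 9.52% of that sum in WAT of AKO mice and 87.5 ± 0.574% in WAT of controls. In BAT it held 82.1 ± 1.50% in AKO mice and 74.1 ± 2.99% in controls (SD, n = 3 each). Its share was lowest in WAT AKO 3, at 60.1%, and genotypes did not overlap in either depot. These shares follow from the levels that chose the gene and add no test.

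**Figure D2:**
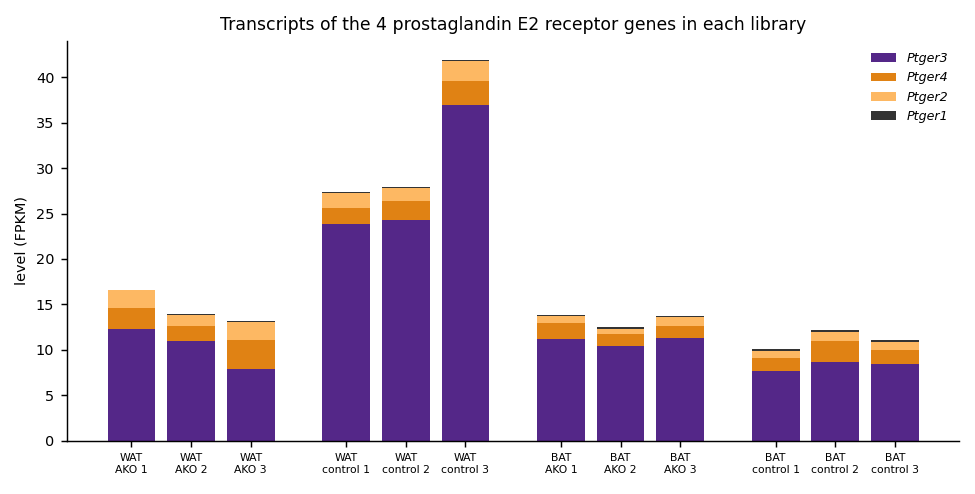
FPKM of the 4 prostaglandin E2 receptor genes stacked for each of the 12 libraries. Ptger3 makes up between 60.1% and 88.1% of the stack in each library, and the 3 WAT control stacks are the tallest.

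The other EP receptor genes did not differ between AKO and control mice by a margin that passed the test. Ptger4, which encodes the Gs-coupled EP4, measured 12.2, 10.2 and 16.8 CPM in WAT of AKO mice, against 11.4, 11.9 and 16.2 CPM in WAT of controls. In BAT it measured 14.1, 10.4 and 10.1 CPM in AKO libraries, against 11.4, 17.8 and 11.8 CPM in control libraries. Genotypes overlapped in both depots. The log2 fold change was −0.02 in WAT (95% interval −0.57 to 0.54, edgeR adjusted p = 0.973) and −0.23 in BAT (95% interval −0.72 to 0.26, adjusted p = 0.640), and the WAT value was positive when libraries were scaled by total count alone.

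Ptger2, the gene of the Gs-coupled EP2, measured 5.78, 3.97 and 5.98 CPM in WAT of AKO mice, against 5.66, 4.50 and 7.40 CPM in WAT of controls. In BAT it measured 3.28, 2.17 and 3.96 CPM in AKO libraries and 3.12, 4.11 and 3.94 CPM in control libraries. Genotypes again overlapped in both depots, with a log2 fold change in WAT of −0.16 (SE 0.260) at edgeR adjusted p = 0.732 and in BAT of −0.24 (SE 0.253) at adjusted p = 0.701. Ptger1, the gene of EP1, had only 6, 9 and 10 counts in WAT AKO libraries and 12, 12 and 10 in WAT controls. In BAT it had 13, 20 and 14 counts in AKO libraries and 14, 24 and 14 in controls. The fitted log2 fold change was −0.55 for WAT (SE 0.359) at edgeR adjusted p = 0.388 and −0.14 for BAT (SE 0.341) at adjusted p = 0.879.

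Ptgs1, the constitutive cyclooxygenase COX-1, had AKO libraries below all controls in WAT and above all controls in BAT after TMM scaling, as did 1.1% of the 13851 genes tested in both depots. Scaled by total count alone, its WAT libraries overlapped and its BAT libraries did not. It measured 10.7, 8.44 and 10.4 CPM in WAT of AKO mice, against 12.1, 12.3 and 15.3 CPM in WAT of controls. In BAT it measured 8.57, 6.78 and 7.64 CPM in AKO libraries, against 5.51, 4.25 and 4.15 CPM in control libraries. Neither change passed the test: the log2 fold change was −0.43 for WAT (SE 0.165) at edgeR adjusted p = 0.200 and 0.73 for BAT (SE 0.181) at adjusted p = 0.256. The difference of the 2 effects, BAT minus WAT, was 1.11 (SE 0.244) and missed the threshold (adjusted p = 0.083). DESeq2 called that difference (adjusted p = 0.00136), as it did for 7.22% of all genes. EdgeR called it without WAT control 2 (adjusted p = 0.0354), in a fit that called far more genes than the 45 called with all 12 libraries. Over all settings run the adjusted p ranged from 0.00136 to 0.249.

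Ptgs2, the inducible cyclooxygenase COX-2, was near the limit of detection. It had 14, 6 and 5 counts in WAT of AKO mice, against 5, 9 and 9 counts in WAT of controls. BAT held 1 count in each AKO library, against 1, 4 and 2 counts in control libraries. The gene passed no filter on low counts and was compared with an exact two-sided permutation test of CPM, which gave p = 1.0 in WAT, where 3 against 3 libraries allow no p below 0.1. No test is given for BAT, where a control library held 1 count like each AKO library. Ptgs1 held between 96.9% and 99.2% of the cyclooxygenase FPKM on average in the 4 groups.

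The synthase and inactivation genes showed no change with genotype that passed the test. Ptges, the inducible prostaglandin E synthase, measured 21.4, 24.1 and 20.7 CPM in WAT of AKO mice and 22.0, 32.6 and 14.0 CPM in WAT of controls. In BAT it measured 7.18, 8.23 and 4.95 CPM in AKO libraries and 5.08, 11.6 and 5.87 CPM in control libraries. The AKO libraries lay inside the control range in WAT, and in BAT both genotypes overlapped. The log2 fold change was −0.05 for WAT (95% interval −0.74 to 0.64, edgeR adjusted p = 0.933) and −0.12 in BAT (95% interval −0.93 to 0.68, adjusted p = 0.892). Scaled by total count alone, the WAT ratio of means was positive, at 0.07 on the log2 scale.

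Ptgis, the prostacyclin synthase, measured 6.99, 4.47 and 5.79 CPM in WAT of AKO mice, against 9.23, 13.4 and 6.68 CPM in WAT of controls. In BAT it measured 1.12, 2.81 and 2.12 CPM in AKO libraries, against 3.19, 2.84 and 2.58 CPM in controls. AKO means were lower in both depots with overlapping libraries, at a log2 fold change of −0.76 for WAT (SE 0.298) with edgeR adjusted p = 0.203 and of −0.49 for BAT (SE 0.348) with adjusted p = 0.552.

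Hpgd measured 59.5, 80.1 and 60.9 CPM in WAT of AKO mice, against 118, 51.6 and 146 CPM in WAT of controls. Control 2 was the lowest of the 6 WAT libraries, and the other 2 controls lay above all AKO libraries. The log2 fold change was −0.66 (SE 0.369, edgeR adjusted p = 0.328). Control 2 also differed from the other WAT controls in its lymphocyte markers, and without it edgeR called far more genes than the 3 called otherwise. The Hpgd log2 fold change was then −1.005 with adjusted p = 0.0293. The part of lymphocytes in this value was not tested. In BAT, Hpgd measured 7.39, 5.92 and 8.77 CPM in AKO libraries and 9.28, 7.23 and 12.5 CPM in controls, with overlap (log2 fold change −0.39, SE 0.250, adjusted p = 0.506).

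Ptgds, the lipocalin-type prostaglandin D synthase, measured 52.5, 27.8 and 35.8 CPM in BAT of AKO mice, against 50.2, 71.5 and 42.5 CPM in BAT of controls. Genotypes overlapped, and the log2 fold change of −0.49 (SE 0.246) missed the threshold (edgeR adjusted p = 0.420). The lowest value was that of BAT AKO 2, the BAT library with the highest sum of skeletal muscle markers. The part of muscle in this value was not tested. Without that library the log2 fold change was −0.32. In WAT, Ptgds had 12, 2 and 14 counts in AKO libraries, against 1 count in each control library. Per total count the summed AKO libraries held 9.46 times as many Ptgds reads as the summed controls, with an exact 95% interval of 2.92 to 48.6 that covers counting error only. A two-sided exact permutation test of CPM had p = 0.1, the smallest possible. Beside it, Ucp1, the uncoupling protein of brown and beige fat cells, measured 11.0, 0.452 and 4.09 CPM in these AKO libraries, against 0.255, 0 and 0.462 CPM in the controls. The 8 brown adipocyte markers, Ucp1 among them, together measured 44.0, 28.3 and 31.1 CPM in WAT of AKO mice and 37.5, 21.6 and 17.9 CPM in WAT of controls, and overlapped. Of the 5 above the filter in WAT, 3 were higher and 2 lower in AKO by fitted fold change, and none passed the test. The part of such cells in the Ptgds counts was not tested.

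With Ptger3 left out, edgeR called 0 of 7 tested genes in WAT and 0 of 8 in BAT, where Ptgds was among the 8. For the difference between depots, with Ptgds left out too, it called 0 of 7. Of all genes tested, 0.0189% were called in WAT, 0.0771% in BAT and 0.275% for the difference. At unadjusted p under 0.05 there were 2 of the genes in WAT (Ptgs1 and Ptgis), 1 in BAT and 1 for the difference (Ptgs1 in both), where 22.6%, 13.6% and 18.4% of all genes were below it in WAT, in BAT and for the difference. DESeq2 called 0, 0 and 1 of them, against 10.6%, 2.19% and 7.22% of all genes. Limma voom called 0 in each, against 0.00628%, 0.0631% and 0.146%. In TMM-scaled CPM, libraries of the 2 genotypes did not overlap for 2 of the 7 genes in WAT (Ptger1 and Ptgs1, both lower in AKO), where 30.5% of all tested genes did not overlap and 15.6% were lower in this way. Scaled by total count alone, 0 of the 7 did not overlap, against 28.2% of all genes. They did not overlap for 1 of the 8 in BAT (Ptgs1, higher in AKO), against 18.6% of all genes, 8.35% higher in this way, and this held under both scalings. The median log2 fold change was −0.43 over the 7 genes in WAT and −0.23 over the 8 in BAT, beside 0.00 and 0.01 over all genes tested.

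**Figure D3:**
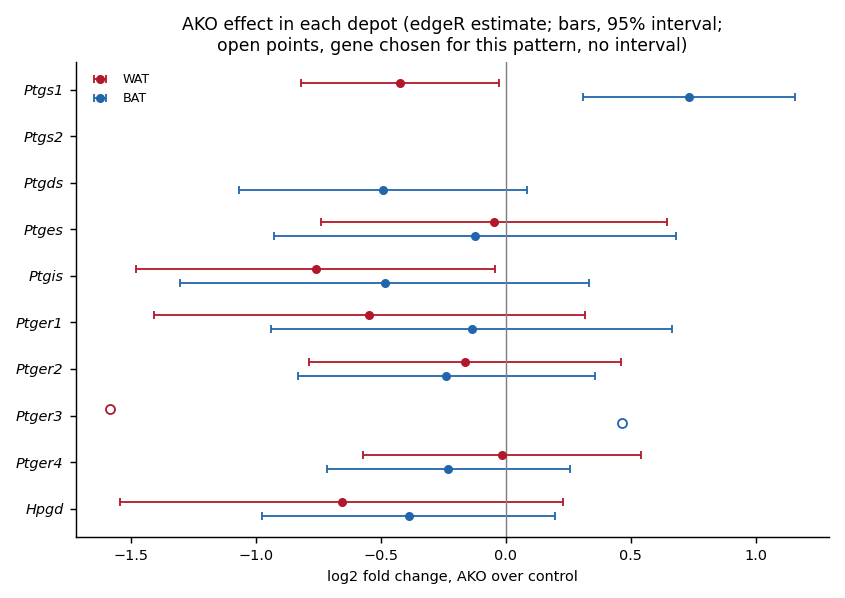
Log2 fold change, AKO over control, of each gene in WAT (red) and BAT (blue), with 95% intervals from edgeR. Ptger3 is drawn as open points without an interval because it was chosen for this pattern, and Ptgs2 in both depots and Ptgds in WAT were too low to be fitted.

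Between depots, Ptgds differed most of the 10 genes. In AKO mice its counts summed to 1645 in BAT and 28 in WAT. Control mice had 2294 Ptgds counts in BAT and 3 in WAT. Every BAT library had at least 385 counts and every WAT library at most 14, so depots were far apart in each genotype. Among the terminal synthases Ptgds, Ptges and Ptgis, Ptgds held 89.6 ± 4.86% of the FPKM in BAT of AKO mice and 3.13 ± 2.14% in WAT of AKO mice. In controls it held 91.6 ± 0.593% in BAT and 0.352 ± 0.143% in WAT (SD, n = 3 each). The gene was listed for this difference, so no p is given.

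Several of the other genes were lower in brown than in white fat. In AKO mice, 4 of 7 tested genes were called, 1 higher and 3 lower in BAT, where 59.3% of all genes were called (28.8% higher and 30.5% lower). In controls, 5 of 7 were called, 1 higher and 4 lower, where 50.1% of all genes were called (24.4% higher and 25.7% lower). With so many genes called between depots, these counts do not set the 10 genes apart. Hpgd fell most, with log2 fold changes, BAT over WAT, of −3.10 in AKO mice (SE 0.190, edgeR adjusted p = 1.41e-05) and −3.40 in controls (SE 0.419, adjusted p = 0.000807). Its BAT libraries measured at most 12.5 CPM and its WAT libraries at least 51.6 CPM.

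Ptges was lower in BAT, with log2 fold changes of −1.62 in AKO mice (SE 0.201, edgeR adjusted p = 0.000359) and −1.58 in controls (SE 0.409, adjusted p = 0.0169). Its call in controls was lost without BAT control 1 (adjusted p = 0.0593) or BAT control 3 (adjusted p = 0.0642). Ptgis was lower too, with log2 fold changes of −1.42 in AKO mice (SE 0.347, adjusted p = 0.00922) and −1.73 in controls (SE 0.297, adjusted p = 0.00317). Both genes thus fell in BAT while Ptgds, which competes for the same prostaglandin H2, was higher there.

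Ptgs1 was lower in BAT of controls, at 4.64 ± 0.756 CPM in BAT and 13.2 ± 1.77 CPM in WAT (SD, n = 3 each; log2 fold change −1.47, SE 0.195, edgeR adjusted p = 0.00109). In AKO mice it averaged 7.66 ± 0.895 CPM in BAT and 9.86 ± 1.24 CPM in WAT, and the libraries overlapped in this TMM scaling (log2 fold change −0.28, SE 0.159, adjusted p = 0.167). Scaled by total count alone, the log2 ratio of mean CPM in AKO mice was −0.86, beside a median of −0.59 over all genes tested. That the depot difference differs between genotypes is the same interaction given above, which missed the threshold.

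Of the EP receptors, Ptger2 was lower in BAT in every library of its genotype, at log2 fold changes of −0.66 in AKO mice (SE 0.269, edgeR adjusted p = 0.0693) and −0.62 in controls (SE 0.248, adjusted p = 0.0763). Deviations of same-numbered WAT and BAT libraries of AKO mice correlated only weakly for number 3 (0.136). With the numbers treated as pairs all the same, the AKO value of Ptger2 was −0.67 and passed the edgeR test (adjusted p = 0.0247). In all it passed in 4 of 14 settings in AKO mice (adjusted p 0.0247 to 0.187) and in 1 of 14 in controls, without WAT control 2 (adjusted p 0.0408 to 0.216). No difference was detected for Ptger4, at −0.09 in AKO mice (95% interval −0.59 to 0.41) and 0.09 in controls (95% interval −0.45 to 0.62), and both signs turned when single libraries were left out. Scaled by total count alone, its log2 ratio of mean CPM was −0.68 in AKO mice and −0.27 in controls. That of Ptger2 was then −1.25 and −0.97, and the median of all genes tested was −0.59 and −0.40. The values of both genes thus depend on the scaling. Ptger1 rose in BAT, by 1.59 in AKO mice (SE 0.372, adjusted p = 0.00765) and by 1.14 in controls (SE 0.328, adjusted p = 0.025). The call in controls was lost without a filter on low counts (adjusted p = 0.0776), in DESeq2 (adjusted p = 0.0705) and without any 1 of 5 of the 6 libraries, with adjusted p of 0.0502 to 0.0899. The sources used here state no strand setting for the counts, so reads from the opposite strand cannot be told apart from those of Ptger1, and its values are uncertain. Ptgs2 had fewer counts in BAT than in WAT of AKO mice, without overlap (3 summed counts in BAT and 25 in WAT, exact permutation p = 0.1, the smallest possible). In controls it overlapped (7 in BAT and 23 in WAT, exact permutation p = 0.2).

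**Figure D4:**
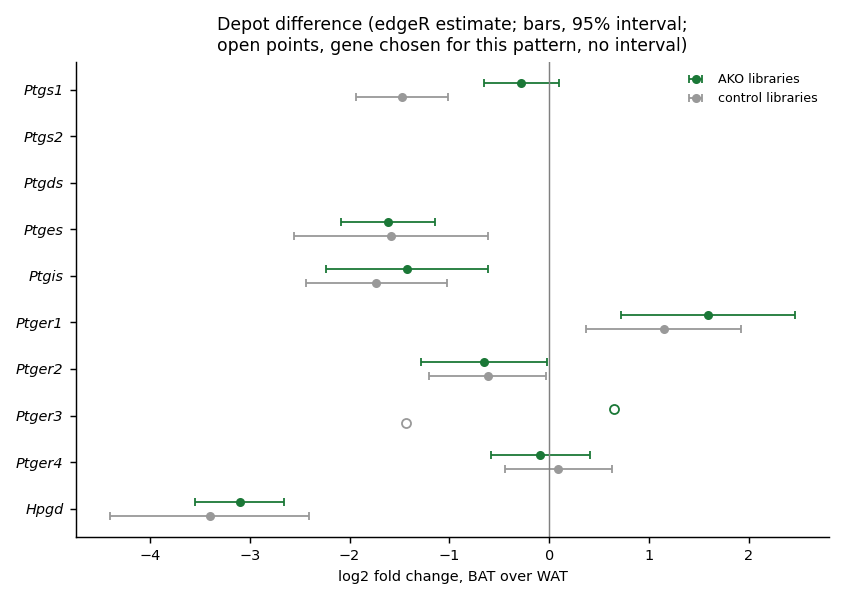
Log2 fold change, BAT over WAT, of each gene in AKO (green) and control (grey) libraries, with 95% intervals from edgeR. Ptger3 is drawn as open points without an interval, and Ptgds, with 1 count in each WAT control library, and Ptgs2, below the filter, are not drawn.

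Markers of other cells differed between depots in the same libraries. All 8 macrophage markers were lower in BAT in both genotypes by the same test, with sums of 151 to 196 CPM in BAT and 690 to 852 CPM in WAT of AKO mice, and 210 to 238 CPM in BAT and 723 to 1085 CPM in WAT of controls. Of the 6 progenitor markers, 5 were lower in BAT in each genotype. Their part in the lower Hpgd, Ptges, Ptgis and Ptgs1 levels was not tested.

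Genes around the pathway were also followed in 6 lists of 55 genes: other prostanoid synthases, phospholipases that release arachidonate, other prostanoid receptors, transporters and further inactivating enzymes, lipoxygenase and leukotriene genes, and Gi-coupled receptors of fat cells. The list of other receptors includes Ptgfrn, which is a regulator of the prostaglandin F receptor and not itself a prostanoid receptor. For AKO against control, edgeR called 0 of 45 tested in WAT and 0 of 37 in BAT, with 16 (beside 22.6% of all genes) and 5 (beside 13.6%) at unadjusted p under 0.05. DESeq2 called 9 (beside 10.6%) and 0 (beside 2.19%), and limma voom 0 in both. The difference between depots gave 0 of 45 by edgeR, 7 at unadjusted p under 0.05 (beside 18.4%), 3 by DESeq2 (beside 7.22%) and 0 by limma voom.

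In white fat the medians of all 6 lists were below that of all genes (0.00), between −0.62 for the other receptors and −0.02 for the Gi-coupled receptors. Adora1, the Gi-coupled adenosine A1 receptor, measured 94.5 ± 13.9 CPM in WAT of AKO mice and 135 ± 11.0 CPM in WAT of controls (log2 fold change −0.52, edgeR adjusted p = 0.122). Ffar2, a short-chain fatty acid receptor of fat cells, measured 58.6 ± 2.24 CPM in AKO and 79.3 ± 12.7 CPM in control WAT (−0.44, adjusted p = 0.136). Pla2g16, the main phospholipase A2 of adipocytes, measured 576 ± 35.2 CPM in AKO and 762 ± 77.9 CPM in control WAT (−0.40, adjusted p = 0.164). For these 3 genes DESeq2 made a call, as for Ptgfrn, and the libraries of the genotypes did not overlap. Ptgfrn, a negative regulator of the prostaglandin F receptor, measured 41.8 ± 1.93 CPM in AKO and 84.7 ± 14.7 CPM in control WAT (−1.02, adjusted p = 0.0721). Fam213b, a prostamide and prostaglandin F synthase, measured 98.2 ± 24.4 CPM in AKO and 145 ± 12.6 CPM in control WAT (−0.57, adjusted p = 0.163).

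The most abundant genes of the other lists stood as follows in WAT. Akr1b3, an aldose reductase with prostaglandin F synthase activity, had a log2 fold change of −0.07, and Pla2g12a, a secreted phospholipase, of −0.09. Ptgir, the prostacyclin receptor, had −0.30. Ptgr2, a prostaglandin reductase, had −0.23 and Abcc4, an exporter of prostaglandins, −0.08. Lta4h, the leukotriene A4 hydrolase, had −0.27 and Alox5, the 5-lipoxygenase, −0.55. None of these 7 values passed the test, with adjusted p of at least 0.186. Pla2g2d and Tbxa2r, chosen after their values were seen, were highest in the 4 WAT libraries with the higher B lymphocyte sums. Pla2g2d, a secreted phospholipase, measured 40.9, 37.8 and 71.4 CPM in WAT AKO libraries, against 13.1, 24.2 and 7.14 CPM in controls 1, 2 and 3. Tbxa2r, the thromboxane receptor, measured 7.20, 7.14 and 10.3 CPM in AKO libraries, against 0.765, 5.38 and 0.616 CPM in those controls. The part of lymphocytes in these values was not tested.

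In brown fat the list medians lay on either side of that of all genes (0.01), from −0.40 for the other receptors to 0.43 for the Gi-coupled receptors. With 3 genes tested in the list of other receptors, its median was the value of Ptgfrn. Adora1 had a log2 fold change of 0.27, and Ffar4, a receptor for long-chain fatty acids, one of 0.32, with AKO libraries of Ffar4 above all controls. Pla2g16 also lay above all controls (414 ± 32.9 CPM in AKO and 356 ± 13.5 CPM in control BAT, log2 fold change 0.23). Ptgir lay below them (5.03 ± 0.808 CPM in AKO and 8.11 ± 1.79 CPM in control BAT, −0.67). Ptges2, a further prostaglandin E synthase, had 0.00, Akr1b3 0.01, Pla2g12a −0.18 and Ptgfrn −0.40. Ptgr2 had 0.29, Abcc4 0.21, Lta4h −0.09 and Alox12, the platelet-type lipoxygenase, 0.51. Adjusted p was at least 0.316 for these 12 genes. In the same BAT libraries, the 8 macrophage markers summed to 151 to 196 CPM in AKO mice and 210 to 238 CPM in controls. The 6 neutrophil markers, of which Ly6g and Ngp were at 0, summed to 1.08 to 1.67 CPM in AKO mice and 4.68 to 5.73 CPM in controls. Neither sum overlapped between genotypes, none of the 8 macrophage markers and not the 1 neutrophil marker above the filter passed the test, and their part in the BAT values was not tested. For the difference of the AKO effects, Pla2g16 had 0.59 (SE 0.139, edgeR adjusted p = 0.0902) and Adora1 0.75 (SE 0.247, adjusted p = 0.158), both called by DESeq2. The other 10 genes named by abundance for that difference had an adjusted p of at least 0.272 and are Akr1b3, Fam213b, Pla2g12a, Ptgfrn, Ptgir, Ptgr2, Abcc4, Lta4h, Alox5 and the lactate receptor Hcar1.

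**Figure D5:**
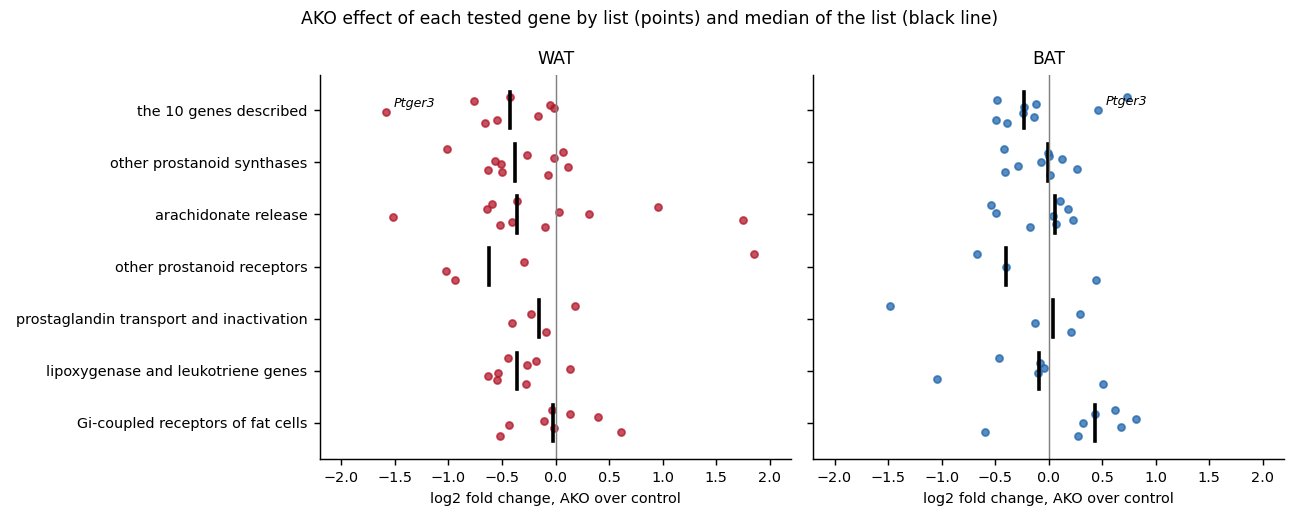
Log2 fold change, AKO over control, of each tested gene (points) in the 10 genes described and in 6 lists of related genes, in WAT (left) and BAT (right); black lines are list medians, taken without Ptger3. Ptger3 lies at −1.58 in WAT and 0.46 in BAT, and Pla2g2d and Tbxa2r are the 2 highest points in WAT.

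Between depots, 37 of 43 tested list genes were called in AKO mice (9 higher and 28 lower in BAT) and 31 of 44 in controls (5 higher and 26 lower). Of all genes tested, 28.8% were called higher and 30.5% lower in BAT of AKO mice, and 24.4% and 25.7% in controls. The counts of each list below are to be read beside these shares. The Gi-coupled receptors, which act on cyclic AMP as EP3 does, had 2 genes higher and 6 lower of 8 in AKO mice, and 0 higher and 6 lower of 8 in controls. Ffar2 measured 5.91 ± 1.25 CPM in BAT and 58.6 ± 2.24 CPM in WAT of AKO mice, and 3.76 ± 2.77 CPM in BAT and 79.3 ± 12.7 CPM in WAT of controls. Cnr1, the cannabinoid CB1 receptor, had log2 fold changes of −4.02 in AKO mice (edgeR adjusted p = 0.000308) and −3.48 in controls (adjusted p = 8.41e-05). Adra2a, the alpha-2A adrenergic receptor, had −3.86 in AKO mice (adjusted p = 0.000186) and −3.53 in controls (adjusted p = 0.00165). Ffar4 was higher in BAT of AKO mice (1.60, adjusted p = 0.000137), and Hcar2, the niacin receptor, lower in BAT of controls (−2.15, adjusted p = 0.0158).

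Among the other synthases, 3 were higher and 3 lower of 9 in AKO mice, and 3 higher and 4 lower of 10 in controls. Ptges2 was higher in BAT, by 2.45 in AKO mice (edgeR adjusted p = 4.17e-06) and 2.15 in controls (adjusted p = 0.000124). It thus ran opposite to Ptges, the prostaglandin E synthase among the 10 genes. Cbr1, a carbonyl reductase that acts on prostaglandin E2, was higher by 1.20 in AKO mice (adjusted p = 4.15e-05) and 1.01 in controls (adjusted p = 0.000125). Fam213b was lower, at −1.91 in AKO mice (adjusted p = 0.000472) and −2.44 in controls (adjusted p = 4.31e-05). Hpgds, the haematopoietic prostaglandin D synthase, was lower in BAT of AKO mice (−1.19, adjusted p = 0.00152). Tbxas1, the thromboxane synthase, was lower in BAT of controls (−1.82, adjusted p = 0.000817).

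Of the phospholipases, 1 was higher and 6 lower of 10 in AKO mice, and 1 higher and 7 lower of 10 in controls. Pla2g4a, the cytosolic phospholipase A2 that frees arachidonate, was lower in BAT, at log2 fold changes of −2.30 in AKO mice (edgeR adjusted p = 0.000487) and −2.21 in controls (adjusted p = 0.00114). The secreted Pla2g5 was lower, at −5.03 in AKO mice (adjusted p = 0.00018) and −5.46 in controls (adjusted p = 0.000618). Pla2g2d (−3.82) was lower and Pla2g6 (0.49, no more than the median shift between scalings of −0.49) higher in BAT of AKO mice, and Pla2g16 (−1.06) and Pla2g2e (−2.07) were lower in BAT of controls. The other receptors were lower in 4 of 4 in AKO mice and 2 of 4 in controls. Ptgfr, the prostaglandin F receptor, had −2.23 in AKO mice (adjusted p = 0.000324) and −3.65 in controls (adjusted p = 0.000538), and Ptgfrn −0.72 and −1.37. Tbxa2r (−3.30) and Ptgir (−0.75) were lower in BAT of AKO mice. In AKO mice, B lymphocyte markers summed to 384 to 892 CPM in WAT and 4.31 to 5.09 CPM in BAT. Among controls these sums overlapped between depots. The part of lymphocytes, macrophages and other cells in the depot values of all listed genes was not tested.

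Of the inactivating enzymes, Ptgr2 was higher in BAT, by 2.13 in AKO mice (edgeR adjusted p = 3.3e-05) and 1.57 in controls (adjusted p = 0.000311), while Hpgd, as given above, was lower. Ptgr1, a related reductase, was lower, at −0.87 in AKO mice (adjusted p = 0.0233) and −1.19 in controls (adjusted p = 0.0012). In AKO mice Slco2a1, the prostaglandin importer, was lower (−1.76) and Abcc4 higher (1.18). Lipoxygenase and leukotriene genes were higher in 1 and lower in 7 of 8 in AKO mice, and lower in 6 of 8 in controls. They included Lta4h (−0.49 in AKO mice and −0.71 in controls) and Ltc4s, the leukotriene C4 synthase (−1.40 and −1.42). Alox5 (−2.28) and Cysltr2 (−2.59) were called in AKO mice, and Alox5ap (−1.93) and Cysltr1 (−1.75) in controls.

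The genes whose log2 CPM ran most like that of Ptger3 over the 12 libraries, among 10652 genes with a mean of at least 5 CPM, were Ednrb (Pearson r 0.968), Serpinh1 (0.953), Cyb5b (0.948), Reep5 (0.942) and Trp53inp2 (0.939). Ednrb, the endothelin B receptor, measured 29.9 ± 3.99 CPM in WAT of AKO mice and 53.7 ± 10.1 CPM in WAT of controls, and 36.6 ± 1.44 CPM in BAT of AKO mice and 30.0 ± 2.46 CPM in BAT of controls. Trp53inp2, a regulator of autophagy, measured 770 ± 157 CPM in AKO and 1759 ± 309 CPM in control WAT, and 835 ± 84.9 CPM in AKO and 733 ± 26.8 CPM in control BAT. All 5 had their highest group mean in WAT of controls. The genes most like Ptgds were Zfp691 (r 0.994), Crls1, Acss1, Neurl4 and Ldhb (r 0.991 each). Ldhb, a lactate dehydrogenase subunit, measured 684 ± 53.4 CPM in BAT and 62.1 ± 2.52 CPM in WAT of AKO mice, and 697 ± 35.4 CPM in BAT and 41.5 ± 8.47 CPM in WAT of controls. These likenesses describe 12 libraries that share depots and groups, and carry no p.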

How the data were processed

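Deposited counts of reads per Ensembl gene were made by the authors from 12 libraries and are not normalised. The authors also deposited FPKM: each value is a count times a gene constant over the library total (relative deviation at most 1.75e-08, genes of 20 or more counts). Per the labels' protocols, TRIzol RNA went into VAHTS Universal V6 libraries. Build mm10 and the programs HISAT2 2.1.0, HTSeq 0.6.0 and Bowtie2 2.2.3 were used, per the submitters' processing notes. The sources used here state neither their roles nor the annotation nor a strand setting. Symbols and coordinates came from GENCODE M21, and 147 of 52550 IDs had no symbol.

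The tests on counts used edgeR 4.0.16 (R 4.3.3, TMM, quasi-likelihood F-test, filterByExpr at a count of 10 and a total of 15). P-values were adjusted by Benjamini-Hochberg over all genes tested, with a threshold of 0.05. AKO was compared with control within each depot, BAT with WAT within each genotype, and the difference of the AKO effects over all 12 libraries. Genes under the filter were compared with exact permutation tests (scipy 1.17.1) and ratios of summed counts with exact intervals. The steps were tested on simulated data.

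Alternatives were RLE size factors, no filter, a mean of at least 2 CPM, DESeq2 1.42.0, limma 3.58.1 voom, the replicate number as a block, 1 fit of all 12 libraries, each library left out in turn, and levels scaled by library total. A block of genotype by number was chosen after seeing the data. Deviations of same-numbered WAT and BAT libraries from their group means had correlations of 0.233 to 0.516 in controls. In AKO mice the correlations were 0.567, 0.676 and 0.136 for numbers 1, 2 and 3. Only AKO number 3 did not correlate best with its own number, so its pairing is weakly founded. From these data the same-numbered libraries of a genotype were taken as pairs in the blocked alternatives only. The main tests used no block and treated all libraries as independent. The labels do not say that they share an animal. Replicates differed by more than sampling noise (chi-square per degree of freedom 16.6 to 83.4).

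The 10 genes and all lists were chosen with earlier results of these data known. No p is given for Ptger3 in any comparison, or for Ptgds between depots and in the difference of effects. From each list, up to 4 called genes with the smallest p were named, or the 2 most abundant where none was called. The 5 genes most like Ptger3 and Ptgds were taken by Pearson r of log2 CPM with a prior count of 2.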

Additional observations from a re-analysis of the deposited data

Results flagged for a closer look

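In TMM-scaled CPM, every AKO library of Ptgs1 lay below all controls of WAT and above all controls of BAT, as in 1.1% of the genes tested in both depots. Ptger3 did the same, but it was listed for its opposite changes, so that share says nothing about it. For Ptger3 the AKO effect in BAT exceeded that in WAT by 2.01 on the log2 scale, and the difference was not tested, because the gene was chosen for it. For Ptgs1 the difference was 1.11 (SE 0.244) and missed the threshold in edgeR's interaction test (adjusted p = 0.083). Scaled by total count alone, 0.527% of genes had this pattern. Ptger3, listed for its opposite changes, kept the pattern, whereas the WAT libraries of Ptgs1 overlapped.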

How the results depend on the processing

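Counts of called genes for AKO against control moved with the settings. None of the 10 genes passed that test in the main fits, and some of their fold changes changed sign between settings. In WAT these were Ptger2 (log2 −0.34 to 0.04), Ptger4 (−0.24 to 0.16) and Ptges (−0.30 to 0.28). In BAT they were Ptger1 (−0.39 to 0.14) and Ptges (−0.33 to 0.30). Between depots, the fold changes of the 10 genes that passed the test kept their direction. In WAT, 3 genes were called, against 277 with no filter, 1679 in DESeq2, 1 in limma voom, 0 with the replicate block, 1030 in 1 fit of all 12 libraries, and 1 to 1649 with 1 library left out. The highest of these came without control 2. In BAT, 11 were called, against 33 with no filter, 7 with a mean of at least 2 CPM, 280 in DESeq2, 1 with the replicate block, and 0 to 95 with 1 library left out, the most without control 2. For the difference of the AKO effects, 45 were called, against 132 with no filter, 973 in DESeq2, 24 in limma voom, 0 with the replicate block, 261 with a block of genotype by number, and 2 to 923 with 1 library left out, the most without WAT control 2. The cause was not tested. Of the 10 genes, those called numbered 0 to 1 in WAT (Hpgd, without control 2) and 0 to 1 for the difference (Ptgs1, without WAT control 2) with 1 library left out, and 1 for the difference in DESeq2 (Ptgs1). Between depots in controls 5 were called, and 3 to 5 with 1 library left out, the fewest without BAT control 1. Same-numbered AKO and control libraries of a depot did not deviate together as a set (correlations −0.616 to 0.219, positive for number 3 only). The block over genotypes is therefore no paired analysis. Pairing WAT and BAT libraries changed 1 call of the 10 genes, that of Ptger2 in AKO mice, which was also made in 1 fit of all 12 libraries and without WAT AKO 2 or BAT AKO 3. Scaling by library total shifted the median log2 fold change of all genes by 0.13 in WAT, −0.03 in BAT, and between depots by −0.49 in AKO mice and −0.33 in controls. Depth limits Ptgs2 and Ptger1, with at most 24 counts a library, and Ptgds in WAT.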
